A study of Mus musculus with 10 samples.

Results

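The loci of 6 regulators of blood stem and myeloid cells, Meis1, Runx1, Spi1, Cebpa, Gata2 and Kit, were taken as fixed mm9 intervals. They are chr11:18770000-18930000 (Meis1), chr16:92595000-92835000 (Runx1), chr2:90920000-90960000 (Spi1), chr7:35895000-35915000 (Cebpa), chr6:88135000-88165000 (Gata2) and chr5:75965000-76055000 (Kit). A CpG position counted where every library of a comparison had at least 5 reads on it. In all 10 libraries this held for 464 of the 5854 positions listed in the loci, against 559685 of 7972927 on the 19 autosomes. Meis1 held 112 of the 464, Runx1 67, Spi1 16, Cebpa 95, Gata2 152 and Kit 22. The strands of a CpG are listed apart in the files, so a position is 1 cytosine. Grouped in 1-kb windows with at least 3 positions, the loci held 42 of the 40428 autosomal windows measured in all 10 libraries.

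The study used reduced representation bisulfite sequencing, in which fragments cut by MspI at CCGG are bisulfite converted, so that unmethylated cytosines are read as thymine and methylated ones as cytosine. The methylation level of a position is the percentage of its reads that are methylated. There were 4 groups of leukaemic mouse spleen cells: MLL-AF9 c-kit+ cells with the Dnmt3b knockin (3 libraries), MLL-AF9 c-kit+ cells of WT (3 libraries), cMyc-Bcl2 cells with the Dnmt3b knockin (2 libraries) and cMyc-Bcl2 cells of WT (2 libraries). The MLL-AF9 oncoprotein joins MLL to AF9, cMyc is a transcription factor and Bcl2 is an inhibitor of cell death. Dnmt3b is a de novo DNA methyltransferase, and the series' design text describes the knockin as tetracycline-inducible. The c-kit label, a sort on the protein that Kit encodes, is given for every MLL-AF9 library and for none of cMyc-Bcl2, so sort and oncogene cannot be told apart. The animals' age and strain, the agent that induced the knockin and whether WT animals received it are not stated by the labels. The labels do not tie libraries to separate animals, so a p-value reflects just how these libraries vary among themselves, and that variation may be technical. The MLL-AF9 libraries held 14446933 to 31805256 CpG read calls and those of cMyc-Bcl2 28229131 to 46762220, and the median depth of a Gata2 position was 13 to 33 reads in the MLL-AF9 libraries and 18 to 45 in those of cMyc-Bcl2. Methylation gives no check of the labelled cell type, and mean autosomal levels were 25.5, 25.1 and 24.0% in MLL-AF9 knockin, 22.4, 23.2 and 22.1% in MLL-AF9 WT, 26.4 and 25.3% in cMyc-Bcl2 knockin and 23.2 and 22.6% in cMyc-Bcl2 WT.

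As background, these genes act in the same branch of blood formation. Meis1, a homeodomain cofactor of HOX proteins, and Gata2, a zinc-finger factor, sustain stem and progenitor cells, and Kit is the receptor for stem cell factor. Runx1 is needed for stem cells to arise, Spi1 encodes the myeloid factor PU.1, and Cebpa directs granulocyte formation. MLL fusions are known to keep Meis1 active in leukaemia. CpG islands at such promoters are usually unmethylated, while the flanks and gene bodies are often methylated.

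Starts of transcription were placed by the CpG spacing of RefSeq promoter sequences (build GRCm38.p6, 250 bases before to 50 after the start), each of which matched listed mm9 positions at 1 place of its chromosome. This placed 5 of the 6 genes, with 2 starts each for Gata2 and Kit and 1 start for Runx1. No promoter of Spi1 was placed. The 3 promoters with positions measured in all 10 libraries are shown, because the levels at their starts are compared between the groups further on. Capitals mark CGs with a position measured in all 10 libraries. Each runs 5′ to 3′ on the gene's strand, which is minus for Meis1 and plus for Gata2.
Meis1, chr11:18918923-18919222: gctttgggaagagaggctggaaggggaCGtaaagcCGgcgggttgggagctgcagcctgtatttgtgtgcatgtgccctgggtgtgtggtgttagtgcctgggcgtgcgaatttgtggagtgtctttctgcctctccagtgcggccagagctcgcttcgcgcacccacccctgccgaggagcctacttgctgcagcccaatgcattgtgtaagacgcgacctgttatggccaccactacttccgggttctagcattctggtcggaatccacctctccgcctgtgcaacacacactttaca
Gata2 upstream start, chr6:88143635-88143934: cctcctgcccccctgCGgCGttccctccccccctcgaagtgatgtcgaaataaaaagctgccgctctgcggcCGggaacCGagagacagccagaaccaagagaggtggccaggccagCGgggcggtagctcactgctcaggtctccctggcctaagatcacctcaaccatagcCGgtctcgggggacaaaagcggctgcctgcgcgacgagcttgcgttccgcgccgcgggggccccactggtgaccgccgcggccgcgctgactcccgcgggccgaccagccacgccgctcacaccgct
Gata2 downstream start, chr6:88148408-88148707: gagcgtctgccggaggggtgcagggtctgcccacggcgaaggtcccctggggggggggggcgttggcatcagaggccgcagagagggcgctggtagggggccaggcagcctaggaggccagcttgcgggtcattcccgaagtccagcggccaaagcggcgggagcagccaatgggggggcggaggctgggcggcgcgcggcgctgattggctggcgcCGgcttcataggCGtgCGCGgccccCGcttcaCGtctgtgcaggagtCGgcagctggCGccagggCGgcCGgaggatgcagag
The Meis1 sequence holds 15 CGs, of which 2 were measured in all libraries, the upstream Gata2 sequence 6 of 32 and the downstream Gata2 sequence 10 of 29. They hold 2, 2 and 3 CCGG sites, a palindrome that reads the same on both strands. Of all 32851 RefSeq promoters of this length, 52.8% hold at least 1 CCGG and 32.6% hold 2 or more. The start of each gene is the 50th base from the end of its sequence.

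Across the 10 libraries Cebpa, Runx1, Meis1, Kit and Gata2 had higher mean methylation with the knockin than without it, by 1.85 to 7.32 points, while Spi1 did not. The values are the mean of the within-model differences in percentage points, with an exact two-sided permutation test in which genotype was permuted within oncogene over 120 arrangements. By the exact permutation test they were +2.98 for Meis1 (p = 0.0333), +5.53 for Runx1 (p = 0.0333), −0.44 for Spi1 (p = 0.8), +1.85 for Cebpa (p = 0.0167), +2.28 for Gata2 (p = 0.0667) and +7.32 for Kit (p = 0.0667). The same measure over all autosomal positions was +2.61 (exact permutation p = 0.0167), and 0.0167 is the smallest p the arrangements allow. The gains of Meis1, Cebpa and Gata2 were thus close to the gain of the autosomes as a whole, and no locus was tested against that gain. The locus p-values given here, over 6 loci and 5 comparisons, are not adjusted. The p of Meis1 was at or above 0.05 without any 1 of 8 of the 10 libraries (0.05 to 0.267), and its value was +1.83 without cMyc-Bcl2 WT replicate 2 and +1.92 without cMyc-Bcl2 knockin replicate 1. That of Runx1 was lost in the same way without any 1 of 9 of the 10 libraries (0.05 to 0.183), and both were lost with strands joined (0.1 and 0.05) and with each window weighted once (0.0667 and 0.05).

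**Figure D1:**
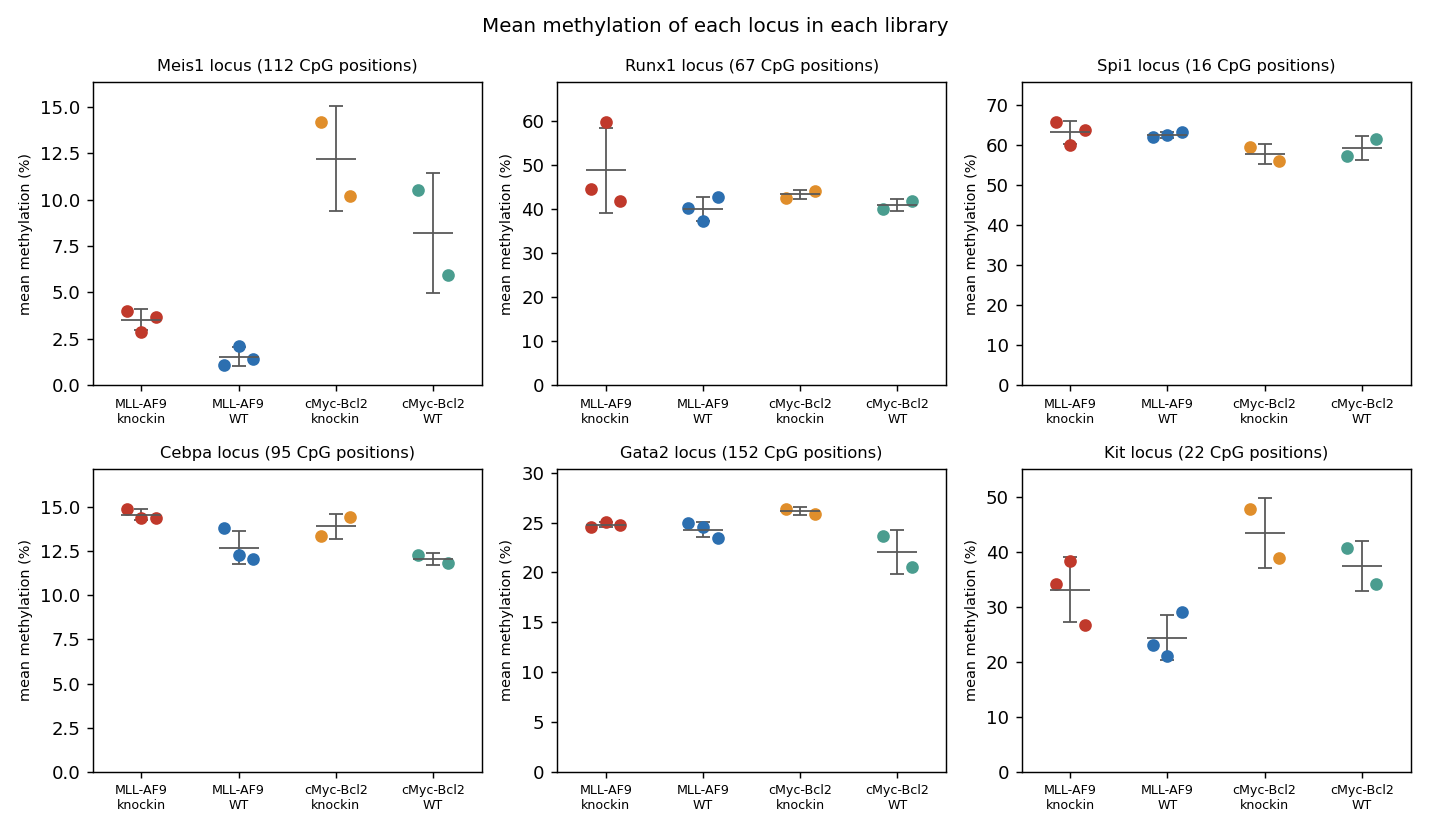
Mean methylation in percent of each locus (y axis, starting at 0) in each library, for the 4 groups (x axis), over the CpG positions with at least 5 reads in all 10 libraries. Dots are libraries, bars the mean and 1 SD. Cebpa alone shows knockin libraries above WT libraries in both models, Meis1 lies between 5.92 and 14.2% in cMyc-Bcl2 and between 1.08 and 3.97% in MLL-AF9, and 1 MLL-AF9 knockin library stands above the other Runx1 values at 59.8%.

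At Cebpa the knockin libraries lay above the WT libraries in both models. Its mean over the 95 positions measured in all libraries was 14.9, 14.4 and 14.4% in MLL-AF9 knockin, against 13.8, 12.3 and 12.1% in MLL-AF9 WT. The cMyc-Bcl2 libraries were at 13.4 and 14.4% with the knockin, against 12.3 and 11.8% in WT. No WT library reached a knockin library of its model, and each model had a difference of +1.85 points. Over each model's own positions it was +1.69 points in MLL-AF9 (109 positions, exact permutation p = 0.1, the smallest possible). The cMyc-Bcl2 difference was +0.98 points there (159 positions, exact permutation p = 0.333, the smallest possible), and −0.25 points with reads as weights. With at least 20 reads per library the difference over both models was −0.37 points (exact permutation p = 0.567). The start window of the gene was near 0 in each group. Its 26 positions ran from chr7:35904583 to 35904758, downstream of the start at 35904312. No position of the promoter sequence was measured in all 10 libraries. The window was at 0.636, 0.507 and 1.06% in MLL-AF9 knockin and 0.397, 0.688 and 0% in MLL-AF9 WT. In cMyc-Bcl2 the same window was at 0.70 and 0.522% with the knockin and 0.577 and 0.654% in WT. These values are near the 0.910 to 3.20% that mitochondrial CpGs read as methylated, which is a guide to unconverted cytosine.

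The larger differences lay in the methylated flanks of Cebpa. In the window from chr7:35914001, 9.78 kb downstream of the start, 4 positions gave 86.5, 83.2 and 82.0% in MLL-AF9 knockin, against 75.0, 69.3 and 67.1% in MLL-AF9 WT. In cMyc-Bcl2 they gave 74.6 and 88.2% with the knockin, against 64.7 and 59.5% in WT. The groups did not overlap in either model, with 51 to 139 reads per library. A quasi-binomial fit of all autosomal windows with oncogene and genotype as terms called it, at +16.4 points and an adjusted p of 0.037. Windows counted as called at an adjusted p under 0.05 together with a difference of 10 points or more. It was the only call among the 42 windows of the loci in that fit, which called 3.69% of autosomal windows higher and 0.0346% lower, so 1 of 42 is near the background. The call was lost without any 1 of 7 of the 10 libraries, where the adjusted p was 0.050 to 0.147, and limma on M-values gave an adjusted p of 0.184.

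Another pair of Cebpa windows had differences of at least 10 points without overlap in a single model, and neither passed in the fit of that model. The window 2.81 kb upstream of the start gave 96.8, 95.6 and 93.4% in MLL-AF9 knockin, against 86.7, 79.3 and 84.4% in MLL-AF9 WT. Its difference was +11.8 points in MLL-AF9 (adjusted p = 0.146), and −2.12 points in cMyc-Bcl2 (adjusted p = 0.947). The interaction of knockin and oncogene had an adjusted p of 0.318 there. The adjoining window, 3.35 kb upstream, was measured in cMyc-Bcl2 and not in MLL-AF9. It was at 81.6 and 98.3% with the knockin, against 82.1 and 70.8% in WT. These overlap, and the difference of +13.5 points had an adjusted p of 0.636 in the quasi-binomial fit. The window 4.33 kb downstream gave 79.7 and 98.3% in cMyc-Bcl2 knockin, against 53.3 and 58.9% in cMyc-Bcl2 WT, a difference of +32.8 points (adjusted p = 0.314). In MLL-AF9 it was at 95.0, 91.7 and 88.1% with the knockin, against 97.4, 84.2 and 80% in WT, and these overlap. The cMyc-Bcl2 WT libraries were thus the low ones in that window, with a difference of −31.1 points from MLL-AF9 WT (adjusted p = 0.161).

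**Figure D2:**
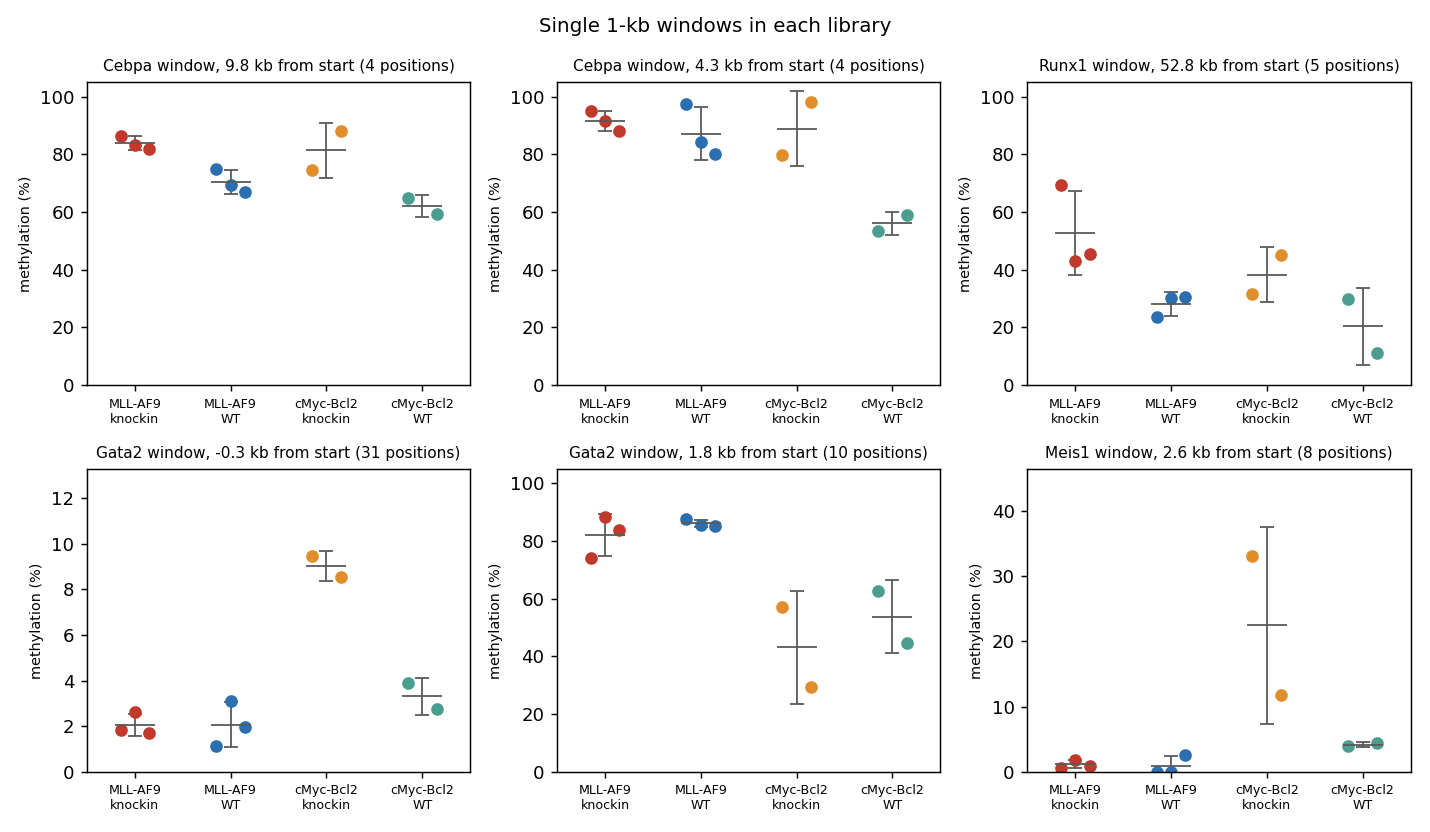
Methylation in percent (y axis, starting at 0) of 6 single 1-kb windows in each library, for the 4 groups (x axis). Dots are libraries, bars the mean and 1 SD, and distances are from the nearest placed start. Over the positions measured in all 10 libraries, in the Cebpa window at 9.8 kb and the Runx1 window at 52.8 kb the knockin libraries lie above the WT libraries of their model, and in the Gata2 window at 1.8 kb cMyc-Bcl2 lies between 29.4 and 62.7% and MLL-AF9 between 74.2 and 88.5%.

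At Runx1 the mean in MLL-AF9 turned on 1 library. It was 44.6, 59.8 and 41.8% in MLL-AF9 knockin, against 40.2, 37.3 and 42.8% in MLL-AF9 WT, so knockin replicate 2 stood above the other libraries. For cMyc-Bcl2 the values over the 67 positions measured in all libraries were 42.6 and 44.0% with the knockin, against 40.0 and 41.9% in WT, and the groups did not overlap. Over the 192 positions measured in cMyc-Bcl2 they were 35.4 and 38.9% with the knockin, against 35.8 and 43.5% in WT, which overlap, and the difference turned to −2.55 points (exact permutation p = 0.667). The MLL-AF9 difference, over the positions of that comparison, was +7.76 points (exact permutation p = 0.2, where 3 against 3 libraries cannot go below 0.1). Without knockin replicate 2 it was +2.45 points, and the difference over both models was +2.77 (exact permutation p = 0.0833).

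That library carried methylation on both sides of the Runx1 start. No position of the promoter sequence itself was measured in all 6 MLL-AF9 libraries. The measured positions nearest to the start were at +0.24 and −0.346 kb, negative being upstream. Runx1 is known to be transcribed from a distal and a proximal promoter, and the start placed here is the CpG-rich one of the 2 RefSeq entries. In the windows from chr16:92697001, 92698001 and 92699001, 29 positions over 1811 bp had at least 5 reads in all 6 MLL-AF9 libraries. In knockin replicate 2 each of the 29 was at 25.0 to 56.1%, with a median of 40.0%, and 317 of 752 reads were methylated. In knockin replicates 1 and 3 the median position was at 0%, and 11 of 519 and 10 of 769 reads were methylated. The MLL-AF9 WT libraries had a median of 0% as well, with 5 of 470, 11 of 755 and 22 of 458 reads methylated. No other MLL-AF9 library had more than 1 of the 29 positions at 20% or more. In a bulk library, a level near 40% does not tell cells with methylated alleles among cells without from partly methylated alleles in every cell.

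**Figure D3:**
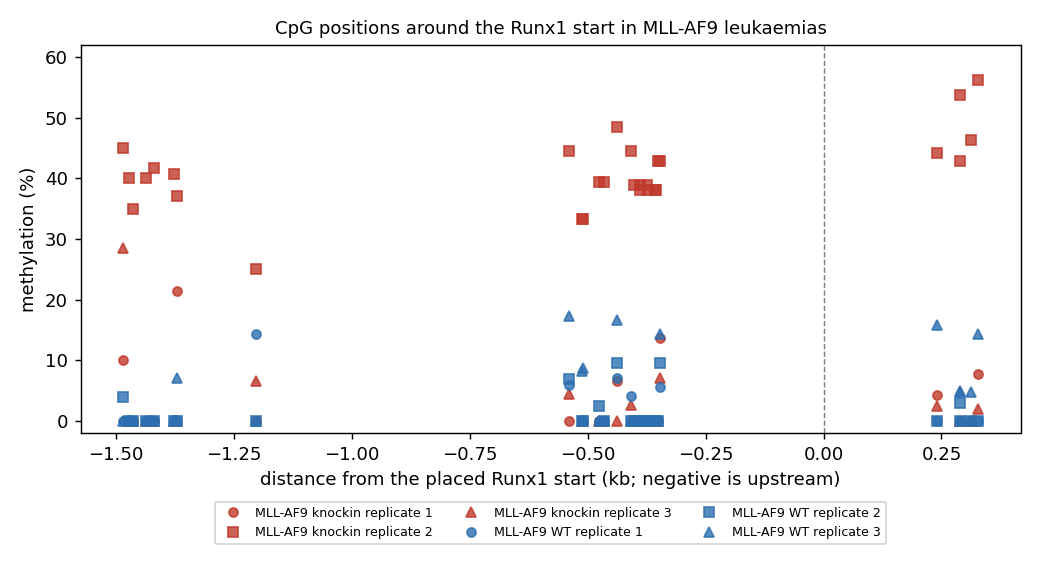
Methylation in percent (y axis) of 29 CpG positions around the placed Runx1 start against their distance from it in kb (x axis), in the 6 MLL-AF9 libraries. Red points are knockin and blue points WT libraries, and the dashed line is the start. Squares in red, knockin replicate 2, lie between 25.0 and 56.1%, above the points of the other 5 libraries at each of the 29 positions.

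In window terms the Runx1 start window was at 1.78, 44.3 and 0.917% in MLL-AF9 knockin, against 0.637, 0.763 and 4.55% in MLL-AF9 WT. Its difference of +13.7 points had an adjusted p of 0.515, and without knockin replicate 2 the difference was −0.64 points. In cMyc-Bcl2 the start window was unmethylated in every library, at 0.523 and 0.559% with the knockin, against 1.20 and 1.16% in WT. There 19 positions of the promoter sequence itself were at 0.478 and 0% with the knockin, against 1.04 and 0.219% in WT.

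Just downstream of the Runx1 start another single library stood apart, in WT. The windows from chr16:92695001 and 92696001, 1.63 and 1.39 kb into the gene, were measured in cMyc-Bcl2. The first was at 0.347 and 9.52% with the knockin, against 13.1 and 63.9% in WT. The second was at 0.234 and 10.4% with the knockin, against 12.5 and 58.1% in WT. The knockin libraries were lower without overlap, with differences of −33.5 and −30.0 points, but WT replicate 2 gave most of it, and the adjusted p was 0.479 and 0.581. Depth on chromosome 16, relative to the median library, was 1.36 in cMyc-Bcl2 knockin replicate 1 and 0.987 to 1.03 in the other cMyc-Bcl2 libraries, and its part in these values was not tested.

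In a window 52.8 kb downstream of the start, knockin lay above WT in both models over the 5 positions measured in all libraries. It was at 69.4, 43.0 and 45.6% in MLL-AF9 knockin, against 23.4, 30.3 and 30.5% in MLL-AF9 WT. In cMyc-Bcl2 it was at 31.5 and 45.1% with the knockin, against 29.9 and 11% in WT. The difference was +21.2 points over both models (adjusted p = 0.070), so it was not called. Over the 8 positions measured in cMyc-Bcl2 the window was at 38.5 and 54.4% with the knockin, against 41.9 and 15.5% in WT, and these overlap. Another window, from chr16:92615001, was at 66.0, 70.5 and 60.8% in MLL-AF9 knockin, against 50, 38.5 and 56.2% in MLL-AF9 WT (+17.5 points, adjusted p = 0.225). Its cMyc-Bcl2 libraries overlapped, and cMyc-Bcl2 WT was at 60.5 and 93.2% over 3 shared positions, above MLL-AF9 WT without overlap.

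At Meis1 each cMyc-Bcl2 library lay above each MLL-AF9 library over the 112 positions measured in all libraries. Its mean was 3.97, 2.87 and 3.68% in MLL-AF9 knockin, against 1.08, 2.09 and 1.42% in MLL-AF9 WT. The cMyc-Bcl2 libraries were at 14.2 and 10.2% with the knockin, against 10.5 and 5.92% in WT. The MLL-AF9 genotypes did not overlap and the cMyc-Bcl2 genotypes did. The MLL-AF9 levels were near the 1.82 to 3.20% that mitochondrial CpGs read as methylated in those libraries. Each MLL-AF9 WT mean was under the mitochondrial value of its library. Over the positions of each comparison, the knockin difference was +2.01 points in MLL-AF9 (exact permutation p = 0.1, the smallest possible). In cMyc-Bcl2 it was +6.38 points (exact permutation p = 0.667).

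Between the models, Meis1 was at 10.3 and 5.76% in cMyc-Bcl2 WT, against 1.23, 2.29 and 1.61% in MLL-AF9 WT, a difference of +6.34 points. With the knockin it was at 16 and 9.72% in cMyc-Bcl2, against 4.93, 2.89 and 3.47% in MLL-AF9, a difference of +9.10 points. Both comparisons gave an exact permutation p of 0.1, the smallest that 2 against 3 libraries allow. Of the 112 positions measured in all libraries, 32 and 15 were at 20% or more in cMyc-Bcl2 knockin and 24 and 10 in cMyc-Bcl2 WT. In MLL-AF9 the number was 3, 2 and 3 with the knockin and 0, 1 and 3 in WT. The same comparisons over all autosomal positions differed by +0.96 points with the knockin and +0.36 points in WT, and their libraries overlapped.

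The windows of Meis1 show this near the start and at the far end of the interval. None lay between 2.99 and 141 kb downstream of the start in these comparisons. With the knockin all 9 windows were higher in cMyc-Bcl2 than in MLL-AF9 without overlap, where 14.6% of autosomal windows were. In WT 6 of 9 windows were, where 15.8% of autosomal windows were. None was called with the knockin, where the fit called 1.84% of autosomal windows higher, or in WT, where it called 0.105%. The start window, 0.58 kb into the gene, was at 25.3 and 21.8% in cMyc-Bcl2 knockin, against 1.59, 7.58 and 0% in MLL-AF9 knockin (+20.5 points, adjusted p = 0.072). The window 0.54 kb upstream, with 32 positions, was at 9.07 and 5.22% in cMyc-Bcl2 knockin, against 0.537, 1.37 and 1.03% in MLL-AF9 knockin, and its +6.17 points (adjusted p = 0.0498) were too few for a call. In WT the start window was at 24.6 and 4.64% in cMyc-Bcl2, against 4.55, 1.11 and 2.0% in MLL-AF9. At the 3 positions of the promoter sequence shown above, cMyc-Bcl2 had 15.9 and 4.5% with the knockin and 8.47 and 4.85% in WT. MLL-AF9 had 3.03, 4.44 and 0.952% with the knockin and 0, 1.96 and 3.03% in WT. In the window 8.44 kb upstream, cMyc-Bcl2 WT was at 16.5 and 12.9%, against 1.38, 4.25 and 0.794% in MLL-AF9 WT (+12.5 points, adjusted p = 0.106).

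**Figure D4:**
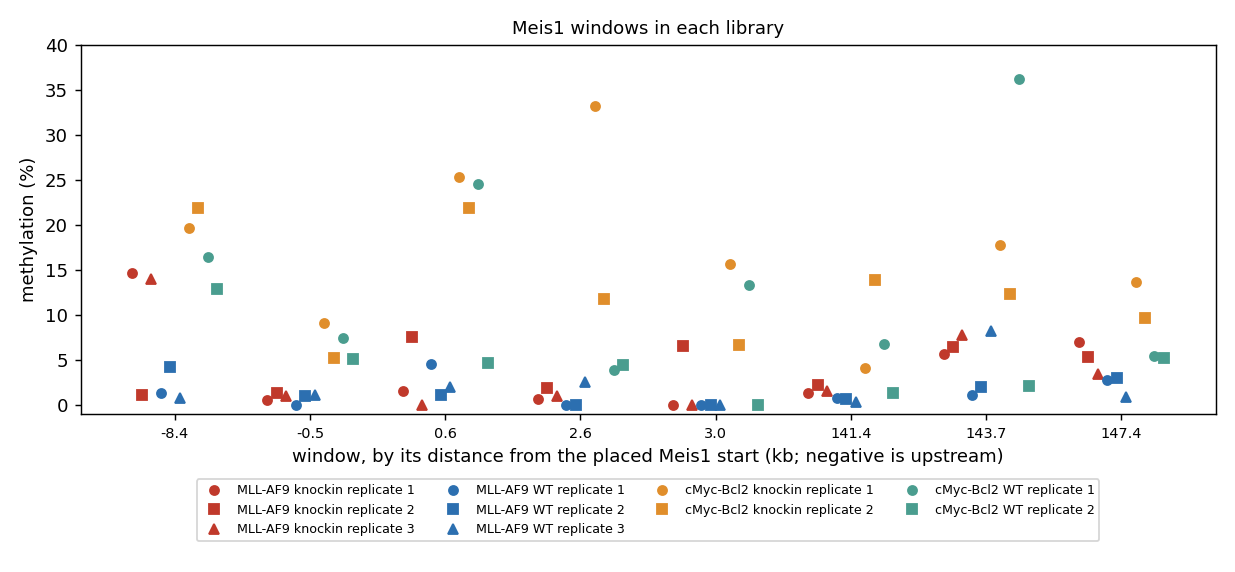
Methylation in percent (y axis) of the 8 Meis1 windows measured in all 10 libraries, ordered by distance from the placed start in kb (x axis, not to scale). Colours are groups and symbols replicates. The cMyc-Bcl2 libraries reach 36.1%, and the MLL-AF9 libraries stay at 14.7% or lower.

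With the knockin, Meis1 windows in MLL-AF9 were higher in 10 of 10, by a median of 2.20 points, where 76.0% of autosomal windows were higher, by a median of 1.29. In cMyc-Bcl2 10 of 12 were higher, by a median of 6.58 points, where 53.0% of autosomal windows were higher, by a median of 0.17. The farthest window, 147 kb downstream of the start and over 17 positions, was at 6.96, 5.37 and 3.41% in MLL-AF9 knockin, against 2.80, 3.04 and 0.901% in MLL-AF9 WT. For cMyc-Bcl2 the values were 13.6 and 9.64% with the knockin, against 5.49 and 5.21% in WT. It did not overlap in either model and had the lowest adjusted p of the loci in the fit of both models, 0.035, but its +4.63 points fell short of a call. The window 2.59 kb downstream was at 33.3 and 13.0% in cMyc-Bcl2 knockin, against 3.76 and 4.11% in cMyc-Bcl2 WT (+19.2 points, adjusted p = 0.326). In MLL-AF9 it stayed at 2.59% or lower in each library.

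Gata2 libraries separated by genotype in cMyc-Bcl2 and overlapped in MLL-AF9. Its mean was 24.6, 25.0 and 24.7% in MLL-AF9 knockin, against 24.9, 24.5 and 23.4% in MLL-AF9 WT. In cMyc-Bcl2 it was 26.4 and 25.8% with the knockin, against 23.6 and 20.5% in WT. Over the positions of each comparison the difference was +0.52 points among MLL-AF9 libraries (exact permutation p = 0.9). In cMyc-Bcl2 it was +4.5 points (exact permutation p = 0.333, the smallest that 2 against 2 libraries allow).

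At the downstream Gata2 start the cMyc-Bcl2 knockin libraries had the highest values of the 4 groups, at levels under 10%. The start window was at 9.59 and 8.24% in cMyc-Bcl2 knockin, against 3.83 and 3.02% in cMyc-Bcl2 WT, over 34 positions with 470 to 1797 reads. Its +5.49 points had an adjusted p of 0.146 in the fit of that model and 0.545 by limma on M-values. The fit of all 4 groups gave +5.69 points and an adjusted p of 0.00796. That fit called 2277 autosomal windows higher in cMyc-Bcl2, against 1 in the fit of that model alone. In MLL-AF9 the start window was at 1.78, 2.56 and 1.65% with the knockin, against 1.11, 3.03 and 1.92% in WT (−0.02 points). The interaction of −5.72 points had an adjusted p of 0.295. Between the knockin groups the window was at 9.48 and 8.53% in cMyc-Bcl2, against 1.82, 2.61 and 1.71% in MLL-AF9, which gave +6.96 points and an adjusted p of 0.016. This was past the p threshold and under the 10 points of a call. The pass was lost without any 1 of the 3 MLL-AF9 knockin libraries (adjusted p = 0.0638, 0.0701 and 0.118), with at least 20 reads per library (0.185) and with limma on M-values (0.114). The 13 positions of the downstream promoter sequence gave 7.81 and 6.18% in cMyc-Bcl2 knockin, against 3.5 and 2.49% in cMyc-Bcl2 WT. In MLL-AF9 they gave 1.92, 0.481 and 1.5% with the knockin, against 0.918, 1.02 and 0.897% in WT.

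At the upstream Gata2 start the genotypes overlapped in the start window in both models, while in MLL-AF9 they did not overlap over the promoter sequence within it. The window's 13 positions in MLL-AF9 were at 4.95, 1.68 and 4.53% with the knockin, against 0.5, 0.292 and 2.74% in WT. That difference of +2.54 points had an adjusted p of 0.413 in the quasi-binomial fit. The 12 positions of the promoter sequence measured in MLL-AF9 were at 3.88, 1.13 and 5.81% with the knockin, against 0, 0.298 and 0.869% in WT, without overlap. These 12 are among the 13 of the window, but each is weighted once, where the window sums reads. Of autosomal 1-kb windows, 18.9% were higher without overlap in MLL-AF9. In cMyc-Bcl2 9 positions of the promoter sequence were at 2.41 and 2.27% with the knockin, against 5.63 and 1.95% in WT, which overlap. All these levels are low and partly within the range of the mitochondrial CpGs.

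Methylated windows of Gata2 included 2 with lower values in cMyc-Bcl2 than in MLL-AF9, neither of them called in the fit of the groups compared. The window 1.76 kb downstream of the second start was at 62.7 and 44.7% in cMyc-Bcl2 WT, against 87.6, 85.7 and 85.3% in MLL-AF9 WT, a difference of −32.5 points (adjusted p = 0.0802). With the knockin it was at 57.1 and 29.4% in cMyc-Bcl2, against 74.2, 88.5 and 83.7% in MLL-AF9, a difference of −38.9 points (adjusted p = 0.0898). The fit of all 4 groups called this knockin difference (adjusted p = 0.0283), as did the fit without cMyc-Bcl2 knockin replicate 1 (−52.7 points, adjusted p = 0.0420). The window 6.03 kb downstream was at 82.9 and 46.5% in cMyc-Bcl2 WT, against 88.3, 86.3 and 95.5% in MLL-AF9 WT. The window 0.68 kb upstream of the second start was at 18.8 and 19.6% in cMyc-Bcl2 knockin, against 0 and 11.6% in cMyc-Bcl2 WT (+13.5 points, adjusted p = 0.504).

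Kit had few measured positions and wide spread. Its mean was 34.1, 38.4 and 26.7% in MLL-AF9 knockin, against 23.0, 21.1 and 29.0% in MLL-AF9 WT. The cMyc-Bcl2 libraries were at 47.8 and 38.8% with the knockin, against 40.6 and 34.2% in WT. Both models overlapped, and the knockin difference of MLL-AF9 was +7.12 points (exact permutation p = 0.2) and that of cMyc-Bcl2 +4.53 points (exact permutation p = 0.667), each over its own positions. cMyc-Bcl2 WT lay above MLL-AF9 WT without overlap, by +13.0 points (exact permutation p = 0.1, the smallest possible), over 22 positions. With the knockin the models overlapped, cMyc-Bcl2 being at 59.9 and 54.0% and MLL-AF9 at 51.8, 55.2 and 45.0%. Near the Kit starts, the window from chr5:75971001 was at 0.855, 0.606 and 2.08% in MLL-AF9 knockin and 0, 0 and 0.935% in MLL-AF9 WT. For cMyc-Bcl2 the values were 3.27 and 4.27% with the knockin and 2.84 and 0.911% in WT. Its measured positions, from chr5:75971225 to 75971333, lay downstream of the starts. The window from chr5:75970001, upstream of the starts, was at 13.9, 7.09 and 3.51% in MLL-AF9 knockin, against 1.19, 6.45 and 1.27% in WT. There cMyc-Bcl2 had 8.91 and 4.69% with the knockin, against 7.19 and 3.42% in WT, and both models overlapped. In the 300-base promoter sequences of Kit, 3 positions were measured in cMyc-Bcl2, at 3.33 and 12.1% with the knockin, against 0 and 0% in WT. These values rest on 18 to 33 reads per library over the 3 positions together, so a few reads set them. The variable part lay about 4 kb into the gene, where the window from chr5:75975001 was at 93.3 and 93.6% in cMyc-Bcl2 knockin, against 68.4, 82.5 and 37.6% in MLL-AF9 knockin (+30.6 points, adjusted p = 0.154). The adjoining window, from chr5:75974001, was at 68.8 and 34.8% in cMyc-Bcl2 knockin and 50, 69.1 and 31.9% in MLL-AF9 knockin. These overlap, so the adjoining positions do not share that difference. Kit is the gene of the protein that the MLL-AF9 cells were labelled for, and levels of RNA or protein were not measured here.

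Spi1 showed no difference between genotypes beyond the spread of its libraries. Its mean was 65.9, 60.2 and 63.9% in MLL-AF9 knockin, against 62, 62.5 and 63.4% in MLL-AF9 WT. In cMyc-Bcl2 it was 59.5 and 56.0% with the knockin, against 57.2 and 61.6% in WT. The genotypes overlapped in both models over 16 positions. With the knockin, cMyc-Bcl2 lay under MLL-AF9 without overlap, with a difference of −5.56 points (exact permutation p = 0.2). Of its 3 windows in all libraries, that from chr2:90937001 was at 5% or lower in each library, and the other pair at 88.6% or higher. Depth on chromosome 2 was 1.22 times the median library in cMyc-Bcl2 WT replicate 1.

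By window, the counts in the loci are read beside those of the autosomes. In MLL-AF9 42 of 48 windows were higher with the knockin, where 76.0% of autosomal windows were, and 5 were higher by at least 10 points without overlap, where 7.82% were. None of the 48 was called, where the fit called 0.0515% of autosomal windows higher and 0.00215% lower. By no overlap alone 8 were higher, where 18.9% of autosomal windows were, and 0 lower, where 1.43% were, or 0.238% by at least 10 points. An unadjusted p under 0.05 was found for 8 of the 48, against 14.8% of autosomal windows, and limma on M-values called 0. In cMyc-Bcl2 37 of 61 windows were higher, where 53.0% were. Of these 61, 4 were higher by at least 10 points without overlap, where 12.5% of autosomal windows were, and 2 were lower, where 3.27% were. By no overlap alone 11 were higher and 9 lower, where 23.5% and 17.2% were. None was called, where 0.00140% were called higher, while 6 of the 61 had an unadjusted p under 0.05, against 12.4%, and limma called 0. In the fit of all 4 groups, 1 window was called in cMyc-Bcl2, the Cebpa window 4.33 kb downstream (adjusted p = 0.0495), where 5.63% of autosomal windows were called higher. That fit called 0.522% lower in cMyc-Bcl2 and 0.00247% lower in MLL-AF9, where it called none of the loci. Over both models 36 of 42 windows were higher, where 67.5% were. Of these, 3 were higher without overlap, where 6.20% were, and 2 of them by at least 10 points, where 3.78% were. None was lower without overlap, where 0.257% were, or 0.0247% by at least 10 points. An unadjusted p under 0.05 was found for 14 of the 42, against 19.8%.

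**Figure D5:**
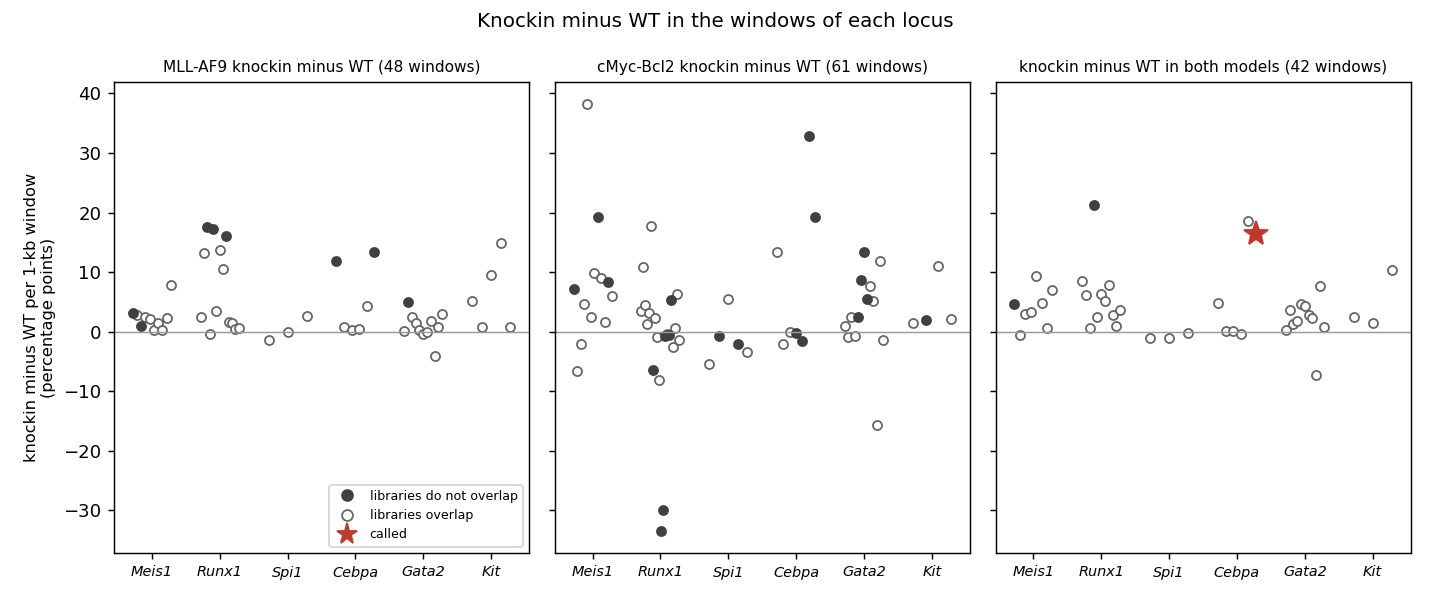
Knockin minus WT in percentage points (y axis) of each 1-kb window of the 6 loci (x axis), in MLL-AF9, in cMyc-Bcl2 and over both models. Filled circles mark windows where knockin and WT libraries are apart, open circles those where they overlap, and the star is the called window. Most MLL-AF9 windows lie above 0, cMyc-Bcl2 windows run from −33.5 to +38.3 points, and 1 Cebpa window at +16.4 points is called over both models.

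Between the models none of 44 windows was called in WT, where 0.105% of autosomal windows were called higher in cMyc-Bcl2 and 0.0777% lower, and 9 had an unadjusted p under 0.05, against 12.9%. None of 47 was called with the knockin, where 1.84% were called higher and 1.12% lower, and 17 had an unadjusted p under 0.05, against 22.8%. Limma on M-values called 0 windows of the loci in either. In WT 26 of 44 windows were higher in cMyc-Bcl2, where 53.8% were. By at least 10 points without overlap, 3 were higher, where 5.96% were, and 3 lower, where 3.79% were, while 5 were lower by no overlap alone, where 10.4% were. With the knockin 24 of 47 were higher, where 39.0% were. By at least 10 points without overlap, 6 were higher, where 7.69% were, and 5 lower, where 6.71% were, while 10 were lower by no overlap alone, where 25.3% were. The fit of all 4 groups called 2 windows with the knockin, the Gata2 window 1.76 kb and the Meis1 window 2.59 kb downstream of their starts, where it called 3.44% of autosomal windows higher and 1.86% lower. In WT it called 0, where it called 0.680% higher and 0.314% lower. The interaction of knockin and oncogene called 0 of 42 windows and 0 of the 40428 autosomal windows by the quasi-binomial fit, where limma called 0 and 1, and 3 of the 42 had an unadjusted p under 0.05, against 11%.

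The knockin difference had its largest medians in windows of intermediate level. Windows were classed by the mean level of the other model's WT libraries, which do not enter the comparison. In MLL-AF9 the median difference was +1.08 points for 23 windows under 20%, +9.54 for 9 windows of 20 to 80% and +2.19 for 10 windows over 80%. The autosomal medians were +0.47, +9.05 and +2.01 points. In cMyc-Bcl2 the medians were +1.57 points for 23 windows, +9.76 for 6 and +1.47 for 13, against −0.01, +7.63 and +0.01 for the autosomes. These medians are descriptions and were not tested.

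The means of 2 loci across the 10 libraries were compared by their root mean square difference, after each was centred on its own mean. It was smallest for Cebpa and Gata2, at 1.16 points, and largest of the 15 pairs for Kit and Spi1, at 9.95 points. The measure is not scaled by the spread of a locus. Loci that vary little thus give small values, and a small value does not show that 2 loci moved together. Both values include the offset between the models.

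Other haematopoietic regulators were compared at their promoters. Of 36 genes on the list, 27 had a RefSeq promoter and 11 could be placed. With 3 or more positions, 7 were measured in MLL-AF9 and 10 in cMyc-Bcl2, and none differed by 10 points or more between knockin and WT. The MLL-AF9 differences ran from −1.45 to +0.49 points, those of cMyc-Bcl2 from −1.41 to +0.51. Without overlap, 1 of 7 was higher and 0 lower in MLL-AF9. In cMyc-Bcl2 0 of 10 were higher and 3 lower, namely Myb, Runx3 and Bmi1. Of autosomal 1-kb windows, 18.9% were higher and 1.43% lower without overlap in MLL-AF9. In cMyc-Bcl2 23.5% of them were higher and 17.2% lower. The 3 named promoters were at 2.43% or lower in each cMyc-Bcl2 library, and mitochondrial CpGs read as methylated at 0.910 to 3.20%. The promoter of Myb, a factor of progenitor growth, was at 0.873, 1.18 and 1.18% in MLL-AF9 knockin, against 1.16, 0.743 and 3.11% in MLL-AF9 WT, which overlap. The cMyc-Bcl2 libraries were at 0 and 0.111% with the knockin, against 0.334 and 0.533% in WT, which do not. That of Flt3, a cytokine receptor, was at 0.595, 0.595 and 1.28% in MLL-AF9 knockin, against 1.67, 1.09 and 0% in MLL-AF9 WT. That of Runx3, a relative of Runx1, was higher with the knockin in MLL-AF9 without overlap, by 0.47 points, and lower in cMyc-Bcl2, by 0.84 points.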

How the data were processed

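The deposited tables list, per library, CpG positions with a pair of read counts, which were read as methylated and unmethylated from the low share of the first on the mitochondrial chromosome (0.910 to 3.20%). Per the submitters' processing notes, the authors used Bismark 0.7.4, Trim Galore 0.2.2, methylKit and CASAVA, with build mm9. The labels do not state read filters or removal of duplicates. Reads carry no molecular identifiers, so counts and depth cover counting error only. Both strands of a CpG are listed, and 1 position is 1 listed cytosine.

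Levels were computed from the deposited counts with Python 3.11.15, numpy 2.4.6 and pandas 2.3.3, and figures drawn with matplotlib 3.10.9. Locus means weighted once each position that had 5 or more reads in every library compared, and were compared with exact two-sided permutation tests (20 arrangements in MLL-AF9, 6 in cMyc-Bcl2, 10 between the models, 120 over both). Reads summed over 1-kb windows with at least 3 positions were fitted with a quasi-binomial logistic model over all autosomal windows (R 4.3.3), with dispersion moderated by limma 3.58.1, held at 1 or above, and Benjamini-Hochberg adjustment over every window. The windows named are those at placed starts, up to 2 per locus and knockin comparison and 1 per model comparison with the largest difference of at least 10 points without overlap, and every called window; others named were chosen after their values were seen. RefSeq promoters were placed where at least 8 listed CpGs fell on their CGs, none fell off and 80% of CGs were listed, the last criterion being added after the data were examined. The loci and lists were chosen with earlier results of these data known. No mm9 gene annotation was used, so exons and introns are not stated. The fits were also run on simulated data with a fixed spread, which cannot show how they perform at the varied spreads of the real windows.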

Additional observations from a re-analysis of the deposited data

Results flagged for a closer look

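In the Runx1 window from chr16:92699001, 1.46 kb upstream of the start, the knockin differences of the 2 models were 16.6 points apart. For MLL-AF9 the difference was +16.1 points. All cMyc-Bcl2 libraries were at 1.12% or lower, so their difference of −0.58 points is a change near 0 and shows no opposite movement. The window was at 2.50, 40.0 and 6.67% in MLL-AF9 knockin, against 0, 1.00 and 0% in MLL-AF9 WT. In cMyc-Bcl2 it was at 0.746 and 0% with the knockin, against 0.797 and 1.12% in WT. The gap of 16.6 points was not tested on these positions, which differ between the models. On the 4 positions measured in all 10 libraries the interaction was +16.5 points, with an adjusted p of 0.683 in the quasi-binomial fit. The MLL-AF9 value rests mainly on knockin replicate 2, the library with methylation on both sides of the start.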

How the results depend on the processing

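No paired analysis was possible because the replicate numbers follow the order of the samples and pair none of them. Of the locus means under an alternative, 275 kept their direction and side of the threshold, 23 reversed, 25 lost a p under 0.05 and 1 gained it; of named windows 546 kept theirs, 28 reversed, 13 lost a pass and 7 gained one; of counts of calls 109 stayed within 1.5 times and 63 did not. Alternatives on joined strands were chosen after seeing the data, and the causes of these changes were not tested.

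With 20 reads per library the knockin difference in MLL-AF9 was −1.51 points for Spi1 and −0.076 for Gata2, cMyc-Bcl2 WT minus MLL-AF9 WT was +0.48 for Cebpa, and the difference over both models was −0.37 for Cebpa and +4.69 for Runx1. With 10 reads Runx1 was +7.18. With reads as weights the cMyc-Bcl2 knockin difference was −0.25 for Cebpa and −2.18 for Kit, the model difference in WT was +0.61 for Cebpa and +1.07 for Gata2, and with the knockin −0.92 for Gata2 and −0.0030 for Kit; over both models Runx1 was +3.24 and Cebpa +0.95. With each window weighted once the model difference was +2.58 for Spi1 in WT, +0.16 for Spi1 and −2.03 for Gata2 with the knockin, and over both models Meis1 was +3.99 and Runx1 +6.01. With strands joined Gata2 was −0.27 in MLL-AF9, and over both models Meis1 was +2.81, Runx1 +4.98 and Kit +6.33.

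Leaving out 1 library gave −0.00017 to 0.756 points for Gata2 in MLL-AF9, −5.82 to 1.48 for Runx1 and −3.0 to 1.56 for Spi1 in cMyc-Bcl2, −1.22 to 1.51 for Runx1 and −4.13 to 0.119 for Spi1 between WT models, and −0.933 to 2.04 for Gata2 between knockin models. Over both models it gave 1.83 to 4.13 for Meis1, 2.77 to 7.02 for Runx1, −1.53 to 0.639 for Spi1, 1.44 to 2.11 for Cebpa, 1.49 to 3.06 for Gata2 and 5.06 to 9.57 for Kit, and 0 to 1 called windows; between knockin models it gave 0 to 2.

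Calls over both models numbered 1, against 2 without a minimum difference, 2 with 10 reads, and 0 with 20 reads, with 5 or more positions per window or with M-values. Between knockin models they numbered 0, against 2 with no minimum difference, with 4 groups in 1 fit and with strands joined. In cMyc-Bcl2 they numbered 0, against 1 with 4 groups in 1 fit. On autosomes that fit called 2277 windows higher and 211 lower in cMyc-Bcl2, against 1 and 0 in the fit of that model alone.

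Windows near 0 reversed most. On the M-value scale the Gata2 window from 88148001 was 0.031 in MLL-AF9 and the Runx1 window from 92697001 0.275 between WT models. The Gata2 window from 88148001 in MLL-AF9 was 0.0027 points with 10 reads and 0.096 with strands joined. The Gata2 window from 88143001 in cMyc-Bcl2 was 1.53 points with strands joined and 0.68 with 4 groups in 1 fit, and −2.41 between WT models with 20 reads. The Cebpa window from 35904001 was −0.032 between WT models with strands joined. Without 1 library, the Meis1 window from 18918001 ran from −0.79 to 2.62 in MLL-AF9, −0.97 to 18.9 in cMyc-Bcl2, −0.23 to 9.73 over both and −18.4 to 1.47 in the interaction. The Runx1 window from 92697001 ran from −0.64 to 21.1 in MLL-AF9, −1.12 to 1.10 between WT models and −0.76 to 10.1 over both. The Cebpa window from 35904001 ran from −0.195 to 0.492 in MLL-AF9, −0.158 to 0.0582 between WT and −0.677 to 0.0726 between knockin models, −0.116 to 0.266 over both and −0.139 to 0.540 in the interaction. The Gata2 window from 88148001 ran from −0.477 to 0.482 in MLL-AF9, and that from 88143001 from −0.817 to 0.601 in cMyc-Bcl2 and −1.22 to 1.48 between knockin models. Depth limits small differences: the Cebpa call rests on 51 to 139 reads per library.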
